A study of Mus musculus with 6 samples.

Results

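The genes of the integrated stress response and of the unfolded protein response were examined in ureters explanted from E12.5 embryos of the NMRI strain and cultured for 18 h with LiCl. The set held 47 genes, listed by symbol and kept when they had 10 or more counts in at least 3 of the 6 samples, which all 47 did, out of 56748 gene identifiers in the count table. They fell into an ATF4 arm of 28 genes, an XBP1/ATF6 arm of 16 genes and the 3 sensor genes *Eif2ak3*, *Ern1* and *Atf6*. RNA-Seq was performed on 3 control samples (water) and 3 samples treated with 15 mM LiCl, an inhibitor of the kinase GSK3B, all of them wildtype ureters grown on transwell membranes. Neither the number of ureters per sample nor the independence of the cultures is given in the sources used here, so the p-values measure the spread between these samples.

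In the integrated stress response, kinases that sense a lack of amino acids, double-stranded RNA, heme shortage, mitochondrial trouble or unfolded protein phosphorylate the initiation factor eIF2. General translation then drops, while the mRNA of the transcription factor ATF4 is translated more, and ATF4 switches on genes of amino acid synthesis and uptake together with further transcription factors and feedback regulators. In the unfolded protein response of the endoplasmic reticulum (ER), the kinase PERK (*Eif2ak3*) feeds into this pathway, whereas the sensors IRE1 (*Ern1*) and ATF6 act through the factors XBP1 and ATF6, which switch on ER chaperones, protein disulfide isomerases and the machinery of ER-associated degradation (ERAD).

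Total counts ranged from 28473436 to 31266945 per sample, and the leading dimension of a multidimensional scaling of the samples held 55.5% of the variance. Transcripts of the ureteric mesenchyme (*Tbx18*, *Tcf21*) and of the ureteric epithelium (*Cdh1*, *Krt8*) were present in all samples. The summed CPM (counts scaled to a common depth with TMM factors) of 8 epithelial markers was 1319 ± 148 (SD, n = 3) in the controls and 898 ± 18.6 with LiCl (SD, n = 3), and that of 8 mesenchymal markers was 2973 ± 104 and 2544 ± 38.3. Markers in this paragraph were counted as lower or higher at an adjusted p under 0.05 (edgeR). Of all tested genes, 22.4% were lower and 21.1% higher by that rule. Of the epithelial markers 6 were lower and 1, *Epcam*, was higher (log2 fold change 0.37). Of the mesenchymal markers 5 were lower and 1, *Vim*, was higher (0.30). Of 6 macrophage markers, 4 were lower, down to -1.88 for *Fcgr3*, and 1 was higher, with summed CPM of 44.5 to 69.8 in the controls and 47.1 to 55.9 with LiCl. Of 6 tested erythroid markers, 2 were higher and 0 lower, and the sum over 7 ranged from 445 to 624 CPM in the controls and from 569 to 869 CPM with LiCl. In bulk tissue, fewer cells of a type and less RNA per cell cannot be told apart. LiCl replicates 1 and 3 stood apart by skeletal muscle transcripts, with a summed CPM of 34.9 and 73.5 over 8 markers, whereas LiCl replicate 2 had 7.02 and the controls 5.48 to 6.50. The part of cell composition and of muscle tissue in the results was not tested. The counts of both arms are therefore also given with LiCl replicate 2 as the only treated sample.

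Differential expression was tested over 18188 genes with the quasi-likelihood method of edgeR, and p-values were adjusted over all of these genes (Benjamini-Hochberg). A gene past the test had an adjusted p under 0.05. Over all tested genes, 21.1% were past the test and higher with LiCl and 22.4% were past it and lower, with a median log2 fold change of -0.01. Where the log2 fold change also had to pass 1 or -1, the cut-offs of the study, the shares were 2.74% and 4.59%.

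The ATF4 arm rose. Of its 28 genes, 21 (against 21.1% of all tested genes) were past the test and higher with LiCl, 1 was lower and 6 were not past it, with log2 fold changes from -0.28 to 2.03 and a median of 0.54. At a log2 fold change above 1, 4 of the 28 remained, namely *Atf5*, *Slc7a3*, *Ddit3* and *Trib3*, against 2.74% of all tested genes. In 22 of the 28 genes every LiCl sample lay above every control sample, which held for 26.4% of all tested genes. The XBP1/ATF6 arm did not rise with it. Of its 16 genes, 8 (against 22.4%) were past the test and lower with LiCl, 2 were higher and 6 were not past it, all between -0.66 and 0.17 with a median of -0.15, and 0 passed the fold change threshold in either direction. Every LiCl sample lay below every control sample in 9 of the 16 genes, against 27.8% of all tested genes. None of the 3 sensor genes was past the test.

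**Figure D1:**
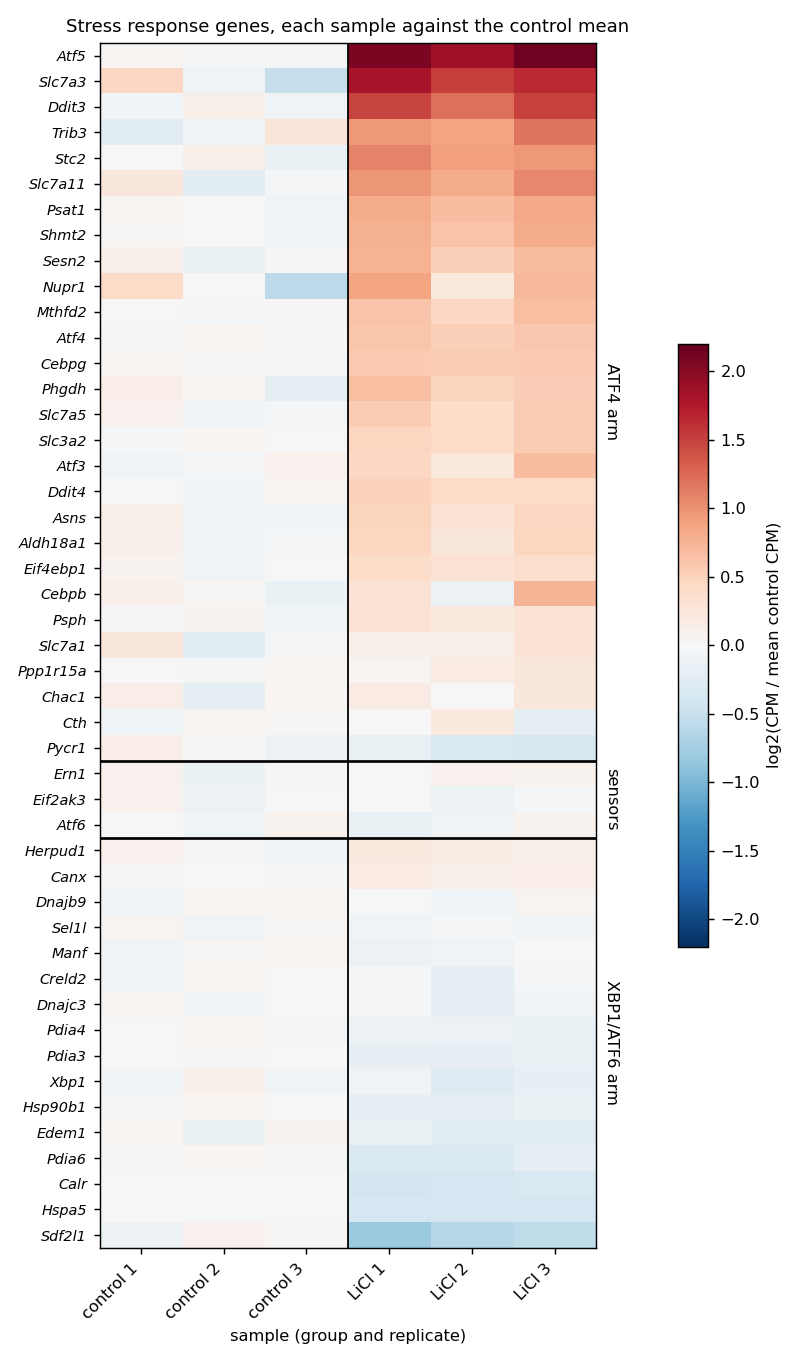
The heat map shows log2 of each sample's CPM over the mean control CPM for the 47 genes (rows, by arm and fold change) in the 3 control and 3 LiCl samples (columns), with red above and blue below the control mean. Most rows of the ATF4 arm are red in all 3 LiCl columns, and the sensors are pale. The rows from *Sel1l* to *Sdf2l1* of the XBP1/ATF6 arm lie below the control mean in all 3, most of them only faintly blue.

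Summed over the genes of an arm, the ATF4 arm held 1636 ± 62.8 CPM in the control and 2540 ± 140 CPM after LiCl treatment (each SD, n = 3), an increase by 55.2%. The sum of the XBP1/ATF6 arm went from 4294 ± 32.7 CPM to 3736 ± 48.1 CPM (each SD, n = 3), a change of -13.0%. In both arms the sums of the groups did not overlap. The sums describe abundant transcripts most, and no test was made of the arms. With LiCl replicate 2 as the only treated sample, assumed to vary like the other samples, 18 genes of the ATF4 arm were higher and 0 lower, with a median of 0.43, and 0 genes of the XBP1/ATF6 arm were higher and 4 lower, with a median of -0.20 (edgeR). In that fit, 10.4% of 19415 tested genes were higher and 10.9% were lower. In 24 of the 28 genes of the ATF4 arm, LiCl replicate 2 had the lowest CPM of the 3 LiCl samples, a pattern seen after the values were known, against 35.5% of all tested genes and 45.7% of those past the test and higher.

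**Figure D2:**
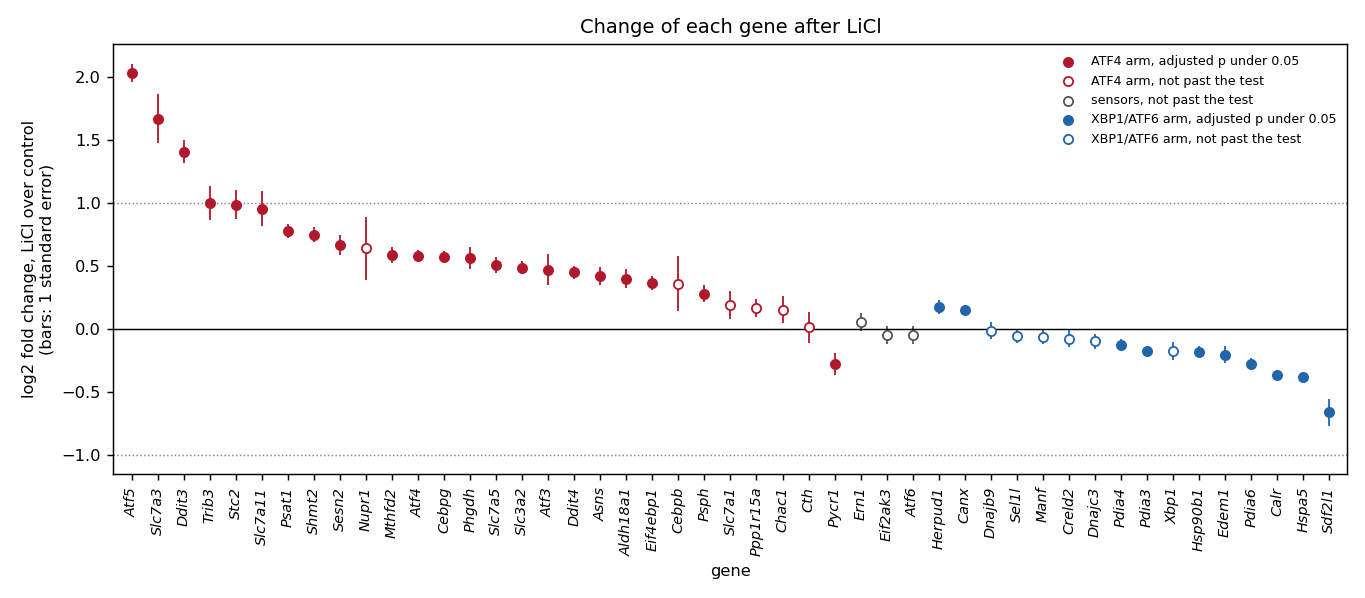
The plot gives the log2 fold change of LiCl over control (y axis) with 1 standard error for each of the 47 genes (x axis), filled where the adjusted p of edgeR was under 0.05. Apart from *Pycr1*, the filled points of the ATF4 arm lie above 0, up to 2.03 for *Atf5*, whereas those of the XBP1/ATF6 arm lie between -0.66 and 0.17.

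Among the 7 transcription factors of the ATF4 arm, 5 rose with LiCl, against 21.1% of all tested genes, and 2 were not past the test. *Atf4* (ENSMUSG00000042406) itself, the factor at the head of the arm, had 186, 201 and 190 CPM in control replicates 1 to 3 and 295, 278 and 288 CPM in LiCl replicates 1 to 3. All LiCl samples were above all controls, at a fold of 1.49 (log2 fold change 0.58, standard error 0.05, adjusted p = 2.4e-05, edgeR). *Atf5* (ENSMUSG00000038539), a related factor whose mRNA is also translated more when eIF2 is phosphorylated, increased most of the 47 genes. It had 55.1, 52.1 and 51.3 CPM in the controls and 222, 193 and 233 CPM with LiCl, a fold of 4.10 (log2 fold change 2.03, standard error 0.07, adjusted p = 3.2e-07, edgeR). Its lowest LiCl sample was far above its highest control, and its log2 fold change stayed between 1.88 and 2.11 over 17 alternative fits. *Ddit3* (ENSMUSG00000025408) encodes CHOP, a factor linked to cell death under prolonged stress. It had 15.6, 17.6 and 15.4 CPM in the controls and 45.2, 37.6 and 46.1 CPM with LiCl, and the groups did not overlap (log2 fold change 1.41, standard error 0.09, adjusted p = 5.8e-06, edgeR).

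*Cebpg*, a partner of ATF4 in heterodimers, varied little among replicates. It rose from 62.6 ± 1.61 to 92.9 ± 0.968 CPM (each SD, n = 3), a log2 fold change of 0.57. *Atf3*, a stress-induced repressor, was less abundant and rose by 0.47 on the log2 scale, from 8.21 ± 0.522 to 11.4 ± 1.78 CPM (each SD, n = 3; adjusted p = 0.015, edgeR). Without LiCl replicate 3 the *Atf3* call was lost, at an adjusted p of 0.056, and it was also lost with LiCl replicate 2 alone and in the unfiltered limma fit on log2(FPKM + 1). *Cebpb* and *Nupr1* had few counts and a wide spread. *Cebpb*, a factor of inflammation and adipogenesis that pairs with CHOP, had 2.90 to 5.29 CPM with LiCl and 2.84 to 3.41 CPM in the controls, and the groups overlapped (log2 fold change 0.36, adjusted p = 0.21, edgeR). It passed the test without LiCl replicate 2, at an adjusted p of 0.045, and had a log2 fold change of -0.11 with that sample alone. *Nupr1*, a small chromatin protein of the stress response, ranged from 4.22 to 6.60 CPM with LiCl and from 2.42 to 4.80 CPM in the controls, with an adjusted p of 0.065 (edgeR) and overlapping groups, and passed the test without control replicate 1 or LiCl replicate 2, without a filter and with DESeq2.

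**Figure D3:**
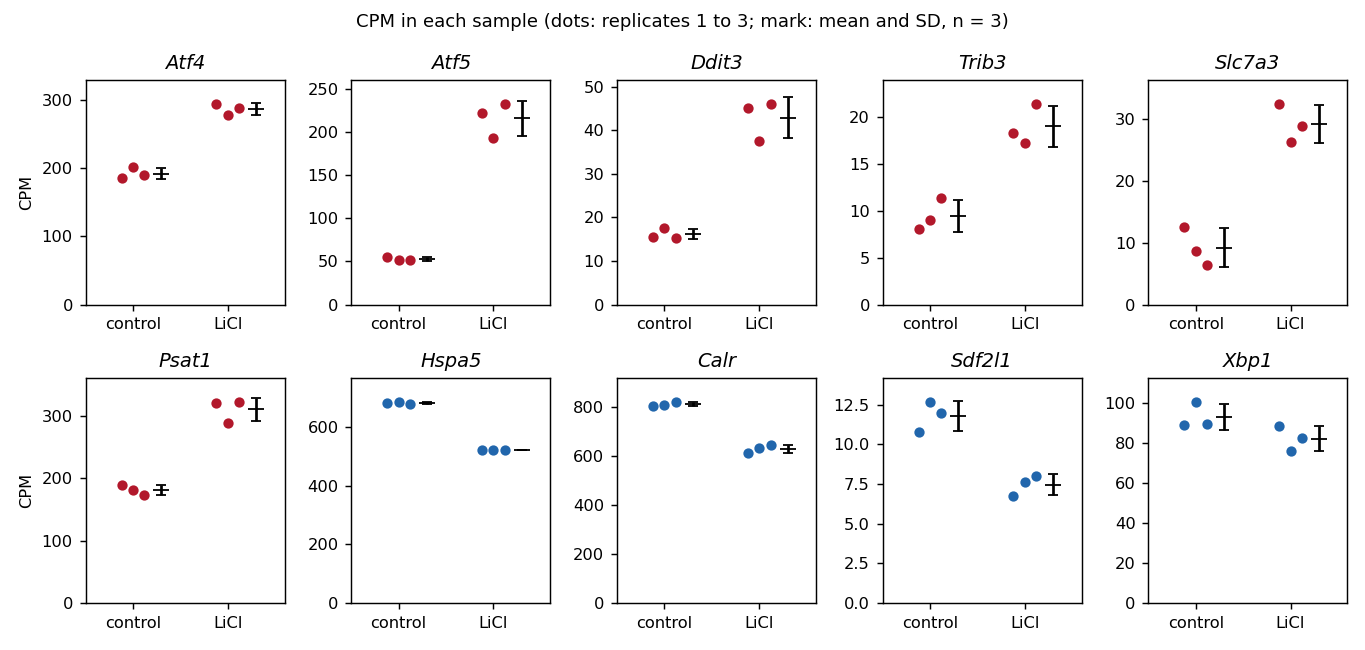
Dots show CPM (y axis, from 0) of replicates 1 to 3 in the control and LiCl groups for 10 genes, with the mean and SD (n = 3) beside them, red for the ATF4 arm and blue for the XBP1/ATF6 arm. LiCl samples lie above the controls in *Atf4*, *Atf5*, *Ddit3*, *Trib3*, *Slc7a3* and *Psat1* and below them in *Hspa5*, *Calr*, *Sdf2l1* and, by a narrow margin, *Xbp1*.

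Of 7 feedback and growth regulators, 5 rose, against 21.1% of all tested genes. *Trib3* (ENSMUSG00000032715), a pseudokinase that restrains ATF4 and AKT, had 8.03, 9.02 and 11.3 CPM in the controls and 18.3, 17.2 and 21.4 CPM with LiCl. The groups were separate, and it lay just inside the fold change threshold, at 1.00 on the log2 scale (standard error 0.13, adjusted p = 0.00038, edgeR) and from 0.87 to 1.16 over the alternatives. *Stc2* (ENSMUSG00000020303), which encodes a secreted glycoprotein, lay just outside it at 0.99 (standard error 0.11, adjusted p = 0.00014, edgeR), with 5.70, 6.15 and 5.06 CPM in the controls and 11.97, 10.6 and 11.0 CPM with LiCl. Genes that slow mTORC1 and cap-dependent translation rose by smaller amounts. *Sesn2* (Sestrin 2) rose by 0.67, *Ddit4* (REDD1) by 0.45 and *Eif4ebp1* (4E-BP1) by 0.37 on the log2 scale, and the call of each held in all 17 alternative fits. *Chac1*, a glutathione-degrading enzyme that is strongly induced by ATF4 and CHOP in other settings, had 15.4 ± 1.86 CPM in the control and 17.1 ± 1.51 CPM with LiCl (each SD, n = 3), and its groups overlapped (log2 fold change 0.15, adjusted p = 0.28, edgeR). *Ppp1r15a* encodes GADD34, which brings a phosphatase to eIF2. Every LiCl sample was above every control, from 21.4 to 24.4 against 20.1 to 21.2 CPM, but the difference was not past the test (log2 fold change 0.16, adjusted p = 0.086, edgeR), except without LiCl replicate 1 (0.22, adjusted p = 0.036).

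Genes of amino acid and one-carbon synthesis summed to 695 ± 38.0 CPM in the control and 1039 ± 65.3 CPM with LiCl (each SD, n = 3). Of these 9 genes, 7 rose and 1 fell, against 21.1% and 22.4% of all tested genes. All 3 genes of the serine pathway were among those that rose. *Psat1*, its aminotransferase, rose by 71.2% (log2 fold change 0.78, standard error 0.06, adjusted p = 1.2e-05, edgeR), from 173 to 190 CPM in the controls to 289 to 322 CPM with LiCl. *Phgdh*, which opens the pathway, rose by 0.56 on the log2 scale and *Psph*, which closes it, by 0.28. The mitochondrial enzymes that pass the serine carbon into the folate cycle followed, with *Shmt2* at 0.75 and *Mthfd2* at 0.58. *Asns*, the asparagine synthetase, rose from 68.1 ± 5.40 to 91.2 ± 6.17 CPM (each SD, n = 3), a log2 fold change of 0.42. The enzymes of proline synthesis diverged. *Aldh18a1*, the first enzyme of the route, rose from 108 ± 7.22 to 142 ± 12.7 CPM (each SD, n = 3; log2 fold change 0.40), while *Pycr1*, the last, was the single gene of the arm past the test in the other direction. *Pycr1* had 28.3, 25.0 and 23.5 CPM in the controls and 22.8, 20.2 and 20.1 CPM with LiCl (log2 fold change -0.28, standard error 0.09, adjusted p = 0.026, edgeR). Its groups were separate, but the gap was small, and the call was lost without control replicate 1, LiCl replicate 2 or LiCl replicate 3, with LiCl replicate 2 alone and in the unfiltered limma fit on log2(FPKM + 1) (adjusted p from 0.077 to 0.095). *Cth*, the cystathionine gamma-lyase of cysteine synthesis, was at 8.43 ± 0.476 and 8.50 ± 1.22 CPM (each SD, n = 3), a difference within the spread.

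Of 5 amino acid transporter genes, 4 rose, against 21.1% of all tested genes. *Slc7a3* (ENSMUSG00000031297), a carrier of cationic amino acids, had 12.6, 8.60 and 6.46 CPM in the controls and 32.5, 26.3 and 28.9 CPM with LiCl. The lowest LiCl sample was well above the highest control although the controls spread widely (log2 fold change 1.67, standard error 0.20, adjusted p = 0.00018, edgeR), and leaving out single replicates moved the log2 fold change between 1.47 and 1.96. *Slc7a11*, the cystine/glutamate exchanger, rose by 0.95 on the log2 scale, but at 0.415 ± 0.0696 FPKM (counts scaled to depth and gene length; SD, n = 3) in the control it had the lowest level per length of the 47 genes. *Slc7a5* and *Slc3a2* encode the light and heavy chain of the transporter LAT1 for large neutral amino acids. They rose side by side, by 0.51 and 0.48 on the log2 scale, from 28.7 ± 1.55 to 41.3 ± 2.42 FPKM and from 40.0 ± 1.42 to 56.7 ± 2.91 FPKM (each SD, n = 3). *Slc7a1*, the broadly expressed relative of *Slc7a3*, had 89.2 to 125 CPM in the controls and 115 to 131 CPM with LiCl. The groups overlapped because of control replicate 1, and the difference was not past the test (log2 fold change 0.19, adjusted p = 0.20, edgeR), although it was without that sample (0.33, adjusted p = 0.015) and without a filter on low counts (0.22, adjusted p = 0.020).

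The 3 sensors showed no difference past the spread. *Eif2ak3* (PERK) had 35.8, 30.8 and 33.9 CPM in the controls and 33.6, 30.96 and 32.6 CPM with LiCl (log2 fold change -0.05, standard error 0.07, adjusted p = 0.60, edgeR). *Ern1* (IRE1) had 44.1, 37.3 and 42.1 CPM in the controls and 41.1, 43.8 and 43.2 CPM with LiCl (0.05, standard error 0.07, adjusted p = 0.57, edgeR). *Atf6* had 47.3, 44.2 and 50.1 CPM in the controls and 42.2, 44.8 and 49.9 CPM with LiCl (-0.05, standard error 0.07, adjusted p = 0.62, edgeR). In each gene the groups overlapped. The sensors act through phosphorylation and cleavage of the proteins, which transcript counts do not measure.

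In the XBP1/ATF6 arm, *Xbp1* (ENSMUSG00000020484) had 88.9, 100.4 and 89.7 CPM in the controls and 88.3, 76.0 and 82.4 CPM with LiCl. The groups were separated only by the gap between LiCl replicate 1 and control replicate 1, and the difference was not past the test (log2 fold change -0.18, standard error 0.07, adjusted p = 0.067, edgeR), although it was without LiCl replicate 1 (adjusted p = 0.033) and with library size scaling only (adjusted p = 0.043). Counts per gene do not separate the spliced from the unspliced *Xbp1* mRNA. Of 7 chaperone genes, 3 fell, against 22.4% of all tested genes, and 4 were not past the test. *Hspa5* (ENSMUSG00000026864), which encodes BiP, the main ER chaperone of the HSP70 family and the usual readout of the unfolded protein response, had 681, 685 and 678 CPM in the controls and 521, 521 and 523 CPM with LiCl. The replicates of each group were nearly equal, and the change was -23.5% (log2 fold change -0.39, standard error 0.04, adjusted p = 5.5e-05, edgeR). *Sdf2l1* (ENSMUSG00000022769), a cofactor of BiP, fell most in the arm. It had 10.7, 12.7 and 11.98 CPM in the controls and 6.73, 7.62 and 8.02 CPM with LiCl, again without overlap (log2 fold change -0.66, standard error 0.11, adjusted p = 0.0011, edgeR). *Hsp90b1* (GRP94), the ER chaperone of the HSP90 family, fell by 0.18 on the log2 scale, from 172 ± 6.32 to 154 ± 4.07 FPKM (each SD, n = 3). Its call held in 15 of 17 alternative fits and was lost, among others, in the unfiltered limma fit on log2(FPKM + 1) (adjusted p = 0.054). The other chaperone genes, *Dnajb9*, *Dnajc3*, *Manf* and *Creld2*, had log2 fold changes from -0.10 to -0.02.

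The lectins of the calnexin cycle, which hold glycoproteins until they are folded, went in opposite directions. *Calr* (ENSMUSG00000003814), which encodes the soluble calreticulin and had the highest level per length of the 47 genes, had 805, 808 and 819 CPM in the controls and 612, 631 and 644 CPM with LiCl (log2 fold change -0.37, standard error 0.04, adjusted p = 0.00011, edgeR). Its FPKM were 278 ± 3.67 and 218 ± 5.87 (each SD, n = 3). *Canx*, the membrane-bound calnexin, had 394 to 408 CPM in the controls and 436 to 452 CPM with LiCl. It rose by 0.15 on the log2 scale (adjusted p = 0.015, edgeR), which was lost with library size scaling (adjusted p = 0.053), without control replicate 3 (0.058) and with LiCl replicate 2 alone (0.19). All 3 disulfide isomerase genes of the arm fell, against 22.4% of all tested genes. *P4hb* and *Pdia5*, isomerase genes outside the arm, were not past the test (log2 fold changes of 0.08 and -0.20). *Pdia6* had 321, 336 and 321 CPM in the controls and 262, 260 and 281 CPM with LiCl (log2 fold change -0.28, standard error 0.05, adjusted p = 0.0013, edgeR). *Pdia3*, the partner of both lectins, fell by 0.18 and *Pdia4* by 0.13 on the log2 scale. The call of *Pdia4* (adjusted p = 0.038, edgeR) held in 5 of 17 alternative fits and was lost without any 1 of the 6 samples, whereas that of *Pdia3* held in 16.

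The 3 ERAD genes diverged. *Edem1*, a mannosidase that marks misfolded glycoproteins, had 58.7, 51.4 and 60.1 CPM in the controls and 50.9, 48.4 and 48.2 CPM with LiCl. The lowest control was barely above the highest LiCl sample, and the call (log2 fold change -0.21, standard error 0.07, adjusted p = 0.031, edgeR) held in 9 of 17 alternative fits. *Herpud1*, a scaffold of the ERAD complex at the ER membrane, rose by 0.17 on the log2 scale (adjusted p = 0.037, edgeR), a call that held in 10 of 17 alternative fits. *Sel1l*, the partner of the ubiquitin ligase HRD1, was at 162 ± 7.85 and 156 ± 4.23 CPM (each SD, n = 3), a difference within the spread. *Edem1* lost its call without control replicate 1 or 3 or LiCl replicate 2 or 3, and *Herpud1* without control replicate 2 or 3 or any 1 of the LiCl samples. Over all alternatives, 18 of the 21 higher genes of the ATF4 arm were past the test in each of the 17 fits, all but *Atf3*, *Psph* and *Aldh18a1*. Of the 8 lower genes of the XBP1/ATF6 arm, 4 were, namely *Sdf2l1*, *Hspa5*, *Calr* and *Pdia6*. The same count over all tested genes was not made, so these counts do not set the members apart from other called genes.

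Promoters of the genes were searched for the elements through which these factors are known to act. Windows from 250 bases before to 50 bases after the start site were taken from RefSeq (build GRCm38.p6), and 41 of the 47 genes were matched. The ER stress response element (ERSE), bound by ATF6 and XBP1 with NF-Y, was searched as CCAAT, then 9 bases of any kind, then CCACG, on both strands. It stood in 7 of 15 promoters of the XBP1/ATF6 arm (46.7%), in 0 of 24 of the ATF4 arm and in 0.137% of 27025 promoters of all genes. Shown are the elements of *Hspa5*, *Calr* and *Pdia6*, which fell, and of *Canx*, which rose, in capitals between 12 flanking bases on each side, along the strand of the gene. *Calr* carries the element on the opposite strand, so that it reads from CGTGG to ATTGG.
Hspa5, chr2:34772013-34772055, plus strand: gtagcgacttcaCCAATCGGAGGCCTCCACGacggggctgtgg
Calr, chr8:84847063-84847105, minus strand: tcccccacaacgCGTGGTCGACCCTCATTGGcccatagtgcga
Pdia6, chr12:17266479-17266521, plus strand: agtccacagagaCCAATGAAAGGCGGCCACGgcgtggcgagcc
Canx, chr11:50325788-50325830, minus strand: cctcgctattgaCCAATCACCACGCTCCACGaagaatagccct

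The other genes with an ERSE were *Hsp90b1*, which held 2, *Creld2* and *Dnajc3*. Genes with and without the element were found on both sides of the test, as *Sdf2l1* fell without a match and *Creld2* and *Dnajc3* were not past the test with a match. The amino acid response element (CARE), bound by ATF4 with a C/EBP partner, was searched as TGATGNAA on both strands. It stood in 7 of 24 promoters of the ATF4 arm (29.2%), in 1 of 15 of the XBP1/ATF6 arm and in 4.51% of all promoters. Shown are *Asns* and *Slc7a11*, which rose, *Pycr1*, the single member of the ATF4 arm that fell, and *Herpud1*, which carries the match in the other arm and was among the 2 genes that rose there. The capitals mark the element, read as TTGCATCA where it lies on the opposite strand, and *Slc7a11* holds it once on each strand.
Asns, chr6:7693213-7693244, minus strand: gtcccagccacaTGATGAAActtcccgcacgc
Slc7a11, chr3:50443641-50443691, minus strand: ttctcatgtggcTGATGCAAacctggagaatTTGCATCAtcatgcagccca
Pycr1, chr11:120643832-120643863, minus strand: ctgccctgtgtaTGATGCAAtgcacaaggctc
Herpud1, chr8:94386305-94386336, plus strand: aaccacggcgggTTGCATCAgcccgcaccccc

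The other matches of the ATF4 arm were in *Atf3*, *Chac1*, *Nupr1* and *Trib3*. The element was thus present both in genes that rose and in genes that were not past the test. The cyclic AMP response element TGACGTCA stood in 1 of 24 promoters of the ATF4 arm, that of *Ppp1r15a*, and in 2.03% of all promoters. The element TGACGTGG of the unfolded protein response stood in 0 of the 41 and in 0.714% of all promoters. At that share, a count of 0 among 41 does not set the members apart. A match describes the letters of these windows and not the binding of a factor.

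Further genes of the same pathways were taken from lists. The cytosolic aminoacyl-tRNA synthetases, which load tRNAs and are in part ATF4 targets, rose nearly as a family. Of 20 genes, 17 were past the test and higher with LiCl and 0 lower, against 21.1% and 22.4% of all tested genes, with a median log2 fold change of 0.33. *Cars* (cysteine) rose by 0.80, *Iars* (isoleucine) by 0.69 and *Mars1* (methionine) by 0.59 on the log2 scale. Of 13 synthetase promoters that were matched, 5 held the CARE. With LiCl replicate 2 as the only treated sample, 11 of the 20 genes were higher, against 10.4% of the genes tested in that fit. Of 16 tested other ATF4 targets, 6 rose and 1 fell (all tested genes: 21.1% and 22.4%), with a median of 0.13. *Aldh1l2*, a mitochondrial folate enzyme, rose by 1.06, *Vldlr*, a lipoprotein receptor, by 0.55, and *Gdf15*, a secreted stress cytokine, by 1.89 on the log2 scale, the last from at most 0.661 CPM in the controls to between 1.29 and 1.70 CPM. *Klhl24*, an adaptor of a ubiquitin ligase, fell by 0.61.

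Among 15 genes of eIF2 and its kinases, 7 rose and 1 fell, against 21.1% and 22.4% of all tested genes, with a median of 0.16. *Eif2b5*, the catalytic subunit of the exchange factor eIF2B that phosphorylated eIF2 blocks, rose most, by 0.55 on the log2 scale, followed by *Eif2s2* (0.31), a subunit of eIF2, and *Ppp1r15b* (0.29), the constitutive partner of the eIF2 phosphatase. *Eif2ak2* (PKR) fell by 0.29. Of 10 genes of mitochondrial chaperones, proteases and the relay from mitochondria to eIF2, 7 rose and 1 fell, against the same shares of all tested genes, with a median of 0.25. *Hspa9* (mortalin), the mitochondrial HSP70, rose by 0.70, from 286 to 303 CPM in the controls to 463 to 501 CPM with LiCl, and the proteases *Lonp1* and *Clpp* rose by 0.40 and 0.37. *Oma1*, the protease that starts the relay, fell by 0.70.

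**Figure D4:**
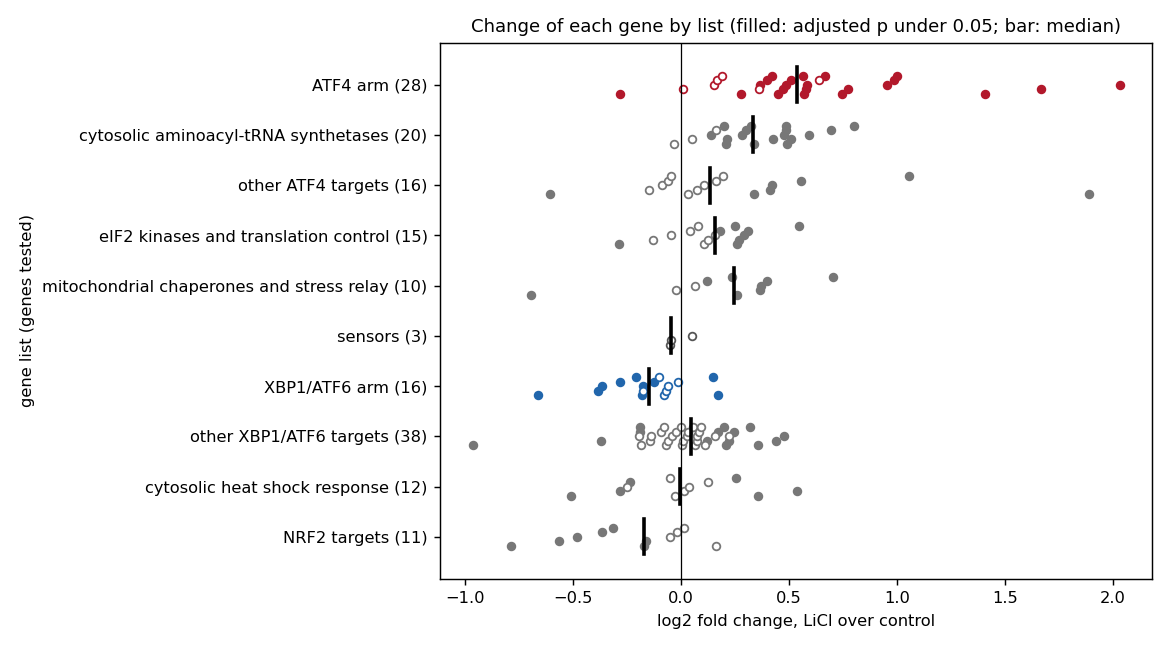
Each dot is a gene, at its log2 fold change of LiCl over control (x axis), by list (y axis, with the number tested), filled where the adjusted p of edgeR was under 0.05, and the black bar is the median of the list. The ATF4 arm lies furthest to the right with a median of 0.54, followed by the synthetases at 0.33, while the XBP1/ATF6 arm (-0.15) and the NRF2 targets (-0.17) lie left of 0.

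A further list of genes tied to XBP1 and ATF6, not all of them targets, had a median of 0.04 over 38 genes. Of these, 10 were higher, a share near the 21.1% of all tested genes, and 4 were lower, against 22.4%. *Mbtps2*, the site-2 protease that frees ATF6, rose by 0.48, *Erp44*, an ER thioredoxin, by 0.44 and *Derl1*, of the ERAD channel, by 0.36 on the log2 scale. *Derl3* had a log2 fold change of -0.97, at 0.966 to 1.31 CPM in the controls and 0.450 to 0.680 CPM with LiCl, and *Kdelr3*, which returns chaperones to the ER, fell by 0.37. In the cytosolic heat shock list, 3 of 12 genes were higher and 3 lower, both near the shares of all tested genes (21.1% and 22.4%), with a median of -0.01. *Hsph1* (HSP110) rose by 0.54 and *Hspb1* (HSP25) fell by 0.51. None of 11 targets of NRF2, the factor of the oxidative stress response, was past the test and higher, and 7 were lower, against 22.4% of all tested genes, with a median of -0.17. The quinone reductase gene *Nqo1* fell by 0.79 and the glutathione reductase gene *Gsr* by 0.57. *Slc7a11*, *Ddit4*, *Sesn2*, *Atf3*, *Cebpb* and *Nupr1* also answer to NRF2, p53, hypoxia or other stress pathways. Without these 6 genes, 17 of the other 22 in the ATF4 arm were past the test and higher, against 21.1% of all tested genes. The median over the 22 was 0.54. The part of those other pathways in the result was not tested.

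Some members share exon bases with a neighbour on the opposite strand in the GRCm38 annotation, and the strand setting of the counting is not given in the sources used here. *Ddit3* shares 68 of 1713 exon bases with the synthetase gene *Mars1*, which rose as well, and *Atf5* shares 82 of 1993 with *Nup62*. *Cebpb* shares 312 of 1504 with *Tmem189*, *Psph* 452 of 4329 with *Cct6a* and *Manf* 146 of 3524 with *Dcaf1*. On the same strand, *Ddit3* shares 105 bases with a second entry of that name (ENSMUSG00000116429), which had 0 CPM, and *Manf* shares 14 with *Rbm15b*. The values of these members carry this uncertainty.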

How the data were processed

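RNA-Seq was performed on 3 control and 3 LiCl-treated samples of ureter explants, with stranded poly-A libraries and paired-end sequencing. Reads were quality-filtered and aligned to GRCm39. The paper names HISAT2, whereas the submitters' processing notes list STAR 2.7, with fastp 0.23, featureCounts 2.0 and DESeq2 1.40. The authors deposited raw counts per Ensembl gene for all samples and FPKM values per sample. The deposited FPKM equal the counts divided by DESeq2 size factors and a whole-number gene length (within 0.1) in 100% of the values over 50 counts. Groups and replicate numbers came from the sample labels.

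Gene symbols were taken from an annotation of GRCm38, in which 52073 of 56748 identifiers were found, so gene coordinates are given only for the RefSeq promoter windows of GRCm38.p6.

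Counts were filtered with filterByExpr, scaled with TMM (factors from 0.982 to 1.03) and tested with edgeR 4.0.16 in R 4.3.3 (glmQLFit and glmQLFTest, two-sided, no covariate). Each standard error is the coefficient over the root of its F value. CPM use the same factors. Replicates of a group were no copies of each other (chi-square over its degrees of freedom, 5.85 to 14.6). Alternatives were RLE factors, library size only, no filter, 10 counts in 3 or in all samples, DESeq2 1.42.0, limma 3.58.1 on log2(FPKM + 1) and log2(FPKM + 0.1), both above a minimum of 0.5 in mean FPKM, and on log2(FPKM + 1) unfiltered, a replicate block, single replicates left out and LiCl replicates 1 and 3 left out together. Fold changes on log2(FPKM + pseudocount) understate the change of low genes. The scripts were tested on simulated data.

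Members and lists were chosen with earlier results of these data known. Values per sample were given for *Atf4*, *Ddit3*, *Xbp1*, the sensors, members past both thresholds and the 5 members of each arm with the largest change past the test; those of *Pycr1* were added after its values were seen. From each other list, up to 3 genes with the highest and up to 2 with the lowest change past the test were eligible. *P4hb* and *Pdia5* were added after their values were seen. Promoters of *Slc7a3*, *Slc7a5*, *Eif4ebp1*, *Manf*, *Atf6* and *Cth* were not analysed here.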

Additional observations from a re-analysis of the deposited data

How the results depend on the processing

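Over 17 alternative fits, 730 of 799 values of single members kept their direction and their side of the test, 43 fell below it and 10 passed it, and a further 16 changed sign while below the test in both fits. No sign changed where either fit was past the test. The sign changes were those of *Cebpb* (-0.11 with LiCl replicates 1 and 3 left out together), *Cth* (-0.026 with library size only) and *Dnajb9* (0.011 without a filter, 0.00087 with DESeq2, 0.0015 on log2(FPKM + 1) with and without a filter and 0.0016 on log2(FPKM + 0.1)), and, with each replicate left out in turn, *Cth* (-0.096 to 0.11), *Eif2ak3* (-0.10 to 0.00086), *Ern1* (-0.0081 to 0.10), *Atf6* (-0.11 to 0.0068) and *Dnajb9* (-0.062 to 0.025). The number of lower genes of the ATF4 arm, 1, was 0 on log2(FPKM + 1) without a filter and with LiCl replicates 1 and 3 left out, and 0 to 1 with each replicate left out. That of higher genes of the XBP1/ATF6 arm, 2, was 0 with library size only and with LiCl replicates 1 and 3 left out, and 0 to 2 with each replicate left out. The 8 lower genes of that arm were 5 on log2(FPKM + 1) without a filter and 4 with both LiCl replicates left out, where the medians of the arms were 0.43 and -0.20 and 11 synthetases were higher. Over all genes, 498 higher and 835 lower genes past the fold change threshold were 177 and 141 on log2(FPKM + 1), 171 and 139 without its filter, and 430 lower on log2(FPKM + 0.1). A pseudocount shrinks the fold changes of low genes, but these fits also differ from the main fit in the test and the filter. The part of each was not tested. Without a fold minimum, 3844 and 4071 became 2014 and 2117 with both LiCl replicates left out, which leaves a single treated sample. Other causes were not tested. The deviations of same-numbered samples correlated at -0.01, -0.18 and 0.13. Samples of different numbers were not compared in this way, so whether the replicate numbers pair the samples was left undecided. With the replicate block, 21 genes of the ATF4 arm were higher and 7 of the XBP1/ATF6 arm lower, and over all genes 478 were higher and 801 lower past the fold change threshold.

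With 3 samples per group, differences near 0.1 on the log2 scale, such as those of *Pdia4* and *Canx*, lie at the limit of the test. The standard errors were largest for *Cebpb* and *Nupr1*, at 0.22 and 0.25, while those of the other members under 10 CPM in the controls, apart from *Slc7a3* at 0.20, lay between 0.11 and 0.14.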
